A study of Mus musculus with 12 samples.

Results

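The genes described are Zic1, Zic2, Zic5, Nefl, Otx2, Sox3 and Nes, 7 mouse genes known for their roles in the neural lineage, of 14197 genes tested. They were proposed from the measured signals, by their levels in the 4 cell groups and on the single arrays of PGC-like cells, so their own levels are a description and carry no test. All 14 probe sets annotated to these symbols alone were taken, and 12 of them, with at least 1 for every gene, lay above the filter on low signal.

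RNA was measured in 12 samples of mouse cells of the male germ line, 3 arrays in each of 4 groups. Primordial germ cells (PGC), the fetal precursors of sperm, were sorted from the genital ridge of male BDF1 fetuses at E12.5, and round spermatids (RS), the haploid cells that follow meiosis, from the testis of BDF1 males at 3 weeks. PGC-like cells (PGCLC) at day 6 of differentiation and spermatid-like cells (SLC) were both made in culture, and all samples were collected by FACS. The labels name neither the stem cell line from which the cultures began nor the gate of the sort, and list no mutation, transgene or added agent for any group; the mouse strain of the cultures is likewise not given. They call the samples biological replicates and do not say what separated them, so p values measure the spread between these samples.

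Zic proteins are zinc finger transcription factors of the dorsal neural tube and neural crest, and Zic2 and Zic5 are also active in the epiblast, the embryonic tissue from which both the germ line and the nervous system arise. Otx2 is a homeobox factor of the epiblast and later of the forebrain, and in culture it holds back the entry of epiblast cells into the germ line. Sox3 belongs, with Sox1 and Sox2, to the SoxB1 factors of neural progenitors. Nes encodes nestin, an intermediate filament protein of neural progenitors and of several dividing or stromal cells outside the brain, and Nefl the light chain of the neurofilament, a protein of neurons.

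Promoter windows from RefSeq, which run from 250 bases before to 50 bases after an annotated start, were at hand for 4 of the 7 genes on build GRCm38.p6. The windows of Zic1 (chr9:91365719-91366018, minus strand) and Zic5 (chr14:122465609-122465908, minus strand) are shown because the signals of both genes were high on the same PGCLC arrays. The window of the most upstream of the 4 Otx2 starts (chr14:48667595-48667894, minus strand) is shown because Otx2 signal was lowest on 1 of those arrays. Each runs 5′ to 3′ in the sense of its gene, and capitals mark matches, on either strand, to the motifs TAATCC (the core bound by Otx factors), ATTGTT (a Sox core), CACGTG (an E-box), GGGCGG (a GC box), TATAAA and CCAAT.
Zic1: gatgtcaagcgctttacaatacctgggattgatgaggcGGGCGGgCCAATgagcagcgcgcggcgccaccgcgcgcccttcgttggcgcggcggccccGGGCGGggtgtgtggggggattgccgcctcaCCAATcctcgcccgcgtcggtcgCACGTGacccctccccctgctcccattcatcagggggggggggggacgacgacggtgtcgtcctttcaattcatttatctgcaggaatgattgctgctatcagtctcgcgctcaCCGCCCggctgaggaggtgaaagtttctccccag
Zic5: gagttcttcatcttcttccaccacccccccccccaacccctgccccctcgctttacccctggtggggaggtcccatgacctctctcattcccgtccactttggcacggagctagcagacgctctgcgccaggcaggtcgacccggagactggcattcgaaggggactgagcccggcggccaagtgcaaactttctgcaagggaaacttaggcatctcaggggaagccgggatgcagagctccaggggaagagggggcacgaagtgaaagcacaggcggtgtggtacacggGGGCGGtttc
Otx2: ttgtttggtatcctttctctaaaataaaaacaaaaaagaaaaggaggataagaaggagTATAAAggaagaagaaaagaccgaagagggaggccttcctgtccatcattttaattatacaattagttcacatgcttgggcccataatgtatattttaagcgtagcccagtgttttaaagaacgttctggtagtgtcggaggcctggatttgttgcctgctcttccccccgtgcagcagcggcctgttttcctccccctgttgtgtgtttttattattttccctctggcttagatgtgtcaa

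The Zic windows were rich in G and C, at 65.3% for Zic1 and 62.7% for Zic5, beside a median of 52.7% over all 32851 windows of the table, and the Otx2 window was at 41.7%. The Zic1 window held 3 GC boxes, 2 CCAAT matches and 1 E-box, and the Zic5 window 1 GC box. GC boxes were in 35.7% of all windows, CCAAT in 37.4% and the E-box in 7.15%. The Otx2 window held 1 TATAAA match, as did 13.6% of windows. TAATCC, found in 7.06% of windows, was in none of these 3 and in the window of another Otx2 start, and ATTGTT, found in 10.7%, was in none of the windows of these genes. A match is a string of letters and was not tested as a binding site. In gene order, Zic5 and Zic2 are neighbouring protein-coding genes on chromosome 14, Zic1 lies beside Zic4 on chromosome 9, and Nefl beside Nefm on chromosome 14.

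The deposited signals are linear intensities on a common scale for all arrays. Array medians lay between 73.2 and 107 units. A probe set passed the filter if it was above 92.0 units on at least 3 arrays, and in log2 values anything below the 25th percentile of the table, 30.7 units, was set to that floor, below which signals have no order. A gene was called higher or lower where the Benjamini-Hochberg adjusted limma p was under 0.05 and the difference at least 2-fold. Germ cell markers were bright in PGC, with a summed signal of 13 measured markers from 73381 to 77750 units on the PGC arrays. The PGCLC arrays were unlike each other. The same sum was 22980 on PGCLC replicate 1, 66082 on replicate 2 and 44754 on replicate 3, and Ddx4, an RNA helicase of germ cells, was at 486, 6507 and 3237. Spermatid markers summed to 256881 to 273539 units in RS and 184814 to 188016 in SLC, with none of 15 at the floor on any RS or SLC array. Nanos3, a PGC survival gene, was not measured.

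Zic1, Zic2, Zic5 and Nefl were brightest in PGCLC, and in that group on replicates 1 and 3. Zic1 signal was 2790, 207 and 2094 units on PGCLC replicates 1, 2 and 3, and at or under the floor on all 3 PGC and all 3 RS arrays. In SLC it was over the floor on 1 array only, at 41.8. PGCLC replicate 2 thus lay far below the other PGCLC arrays and still above every array of the other groups. The mean was 1697 ± 1337 (SD, n = 3) in PGCLC, at least 34.6-fold over PGC by mean log2 values. The fold over PGC was 90.7 on PGCLC replicate 1, 6.72 on replicate 2 and 68.1 on replicate 3, each against the floor. In such bulk samples fewer cells of a type and less RNA per cell cannot be told apart.

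Zic2 signal was 75.5, 85.9 and 126 in PGC, 585, 168 and 647 in PGCLC, 4.93, 33.2 and 21.7 in RS and under 4 units on all SLC arrays. Its PGC and PGCLC arrays did not overlap, and the PGC arrays in turn lay above all spermatid arrays. The mean was 95.7 ± 26.5 in PGC and 467 ± 260.4 in PGCLC, a 4.27-fold difference by mean log2 values. Replicate 2 was 1.80-fold over the PGC mean, and replicates 1 and 3 were 6.26-fold and 6.92-fold over it.

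Zic5 signal, read from its brightest probe set over all arrays (1456140_at), was 70.6, 46.2 and 78.9 in PGC, 1285, 213 and 961 in PGCLC, 654, 498 and 498 in RS and 341, 253 and 294 in SLC. PGC arrays were lowest and overlapped with no other group, while PGCLC replicate 2 lay under all RS and SLC arrays. The mean was 10.1-fold higher in PGCLC (819.7 ± 549.9) than in PGC (65.3 ± 17.0) by mean log2 values.

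Nefl signal was 2066, 177 and 1306 in PGCLC. In PGC it was over the floor on replicate 3 alone, at 79.7, in RS it was 105, 45.8 and 39.6, and in SLC it was over the floor on replicate 3 alone, at 41.1. All PGCLC arrays lay above all others, and the PGC, RS and SLC arrays overlapped at low signal. The PGCLC mean was 1183 ± 950.4, at least 18.5-fold over PGC by mean log2 values.

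Otx2, Sox3 and Nes did not share this pattern. Otx2 signal was 865, 931 and 842 in PGC, 381, 773 and 694 in PGCLC and under 5 units, far below the floor, on every RS and SLC array. The PGC arrays lay above the PGCLC arrays without overlap, and within PGCLC the lowest value was on replicate 1, which was highest for Zic1, Zic5 and Nefl. The log2 difference PGCLC minus PGC was -0.58, from 879 ± 46.3 to 616 ± 208 units. Against the spermatid groups the PGC mean was at least 28.6-fold higher, with RS and SLC both at the floor.

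Sox3 signal was 266, 269.9 and 229 in PGC, 333, 247 and 232 in PGCLC, 196, 146 and 147 in RS and 109, 108 and 95.4 in SLC. PGC and PGCLC arrays overlapped, at means of 255 ± 22.8 and 271 ± 54.5, and the RS arrays lay below both and above SLC. The log2 difference PGCLC minus PGC of 0.072 turned to -0.23 when array medians were centred, -0.16 after quantile normalization, -0.14 with array weights, -0.087 without PGCLC replicate 1 and -0.0047 without PGC replicate 3, so its sign is not settled.

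Nes signal was 269.8, 318 and 351 in PGC, 391, 527 and 432 in PGCLC, 261, 174 and 161 in RS and 381, 403 and 391 in SLC. Every SLC array lay above every RS array, and every PGCLC array above every PGC array, with the lowest of the higher group close to the highest of the lower group in the second case. The mean was 1.44-fold higher in PGCLC than in PGC and 2.02-fold higher in SLC than in RS by mean log2 values. Within PGCLC, Nes was highest on replicate 2, where the Zic genes were lowest. Of the 7 genes, 5 had PGCLC arrays wholly above the PGC arrays and 1 (Otx2) wholly below. Of all genes tested, 20.1% were so placed above and 20.2% below, and 10.3% were called higher and 1.60% lower. These counts are those the genes were chosen on and are read no further.

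**Figure D1:**
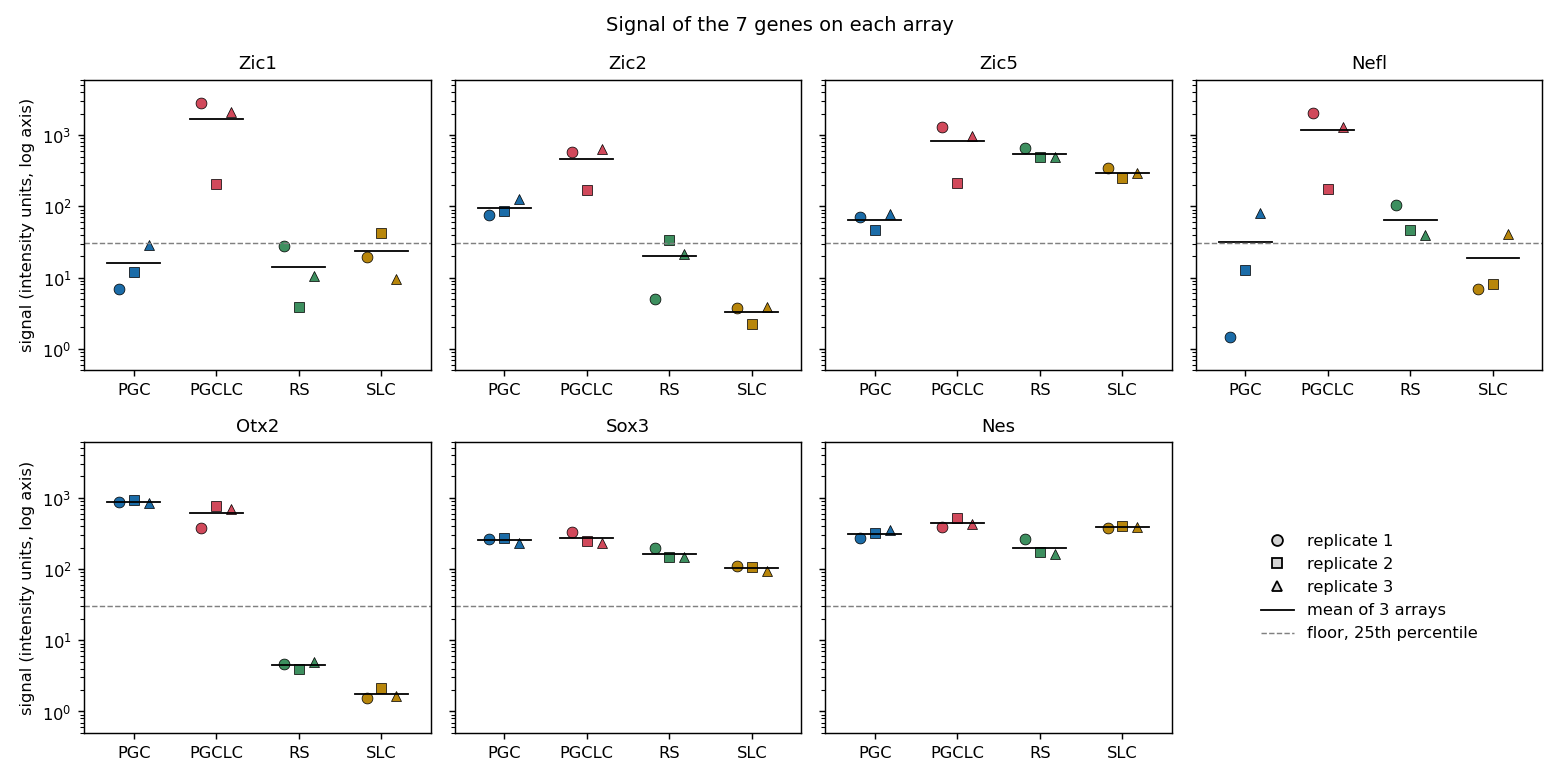
Signal of the brightest probe set of each gene on each of the 12 arrays, in intensity units on a log axis, with symbols for replicates, a line at the mean of 3 arrays and a dashed line at the floor of 30.7 units. Zic1, Zic2, Zic5 and Nefl peak on PGCLC replicates 1 and 3, with PGCLC replicate 2 lower, while Otx2 is lowest of the PGCLC arrays on replicate 1 and Sox3 overlaps between PGC and PGCLC.

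Set in order by group mean, Zic1 ran PGCLC, SLC, PGC and RS, of which the last 3 overlapped at the floor. Nefl ran PGCLC, RS, PGC and SLC, with the last 3 again overlapping. Zic2 and Sox3 ran PGCLC, PGC, RS and SLC. For Zic2 the neighbours RS and SLC overlapped at the floor, and for Sox3 PGCLC and PGC did. Otx2 ran PGC, PGCLC, RS and SLC, with RS and SLC not told apart. Zic5 ran PGCLC, RS, SLC and PGC, where PGCLC overlapped with RS, and Nes ran PGCLC, SLC, PGC and RS, where PGCLC overlapped with SLC.

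The probe sets of a gene did not always tell the same story. Zic1 had 2, and the dimmer one (1439627_at) was at 1273, 116 and 864 on the PGCLC arrays, 42.4 on PGC replicate 3 and under the floor elsewhere. Over the 12 arrays the log2 values of the pair had a Pearson r of 0.995. The second Nefl probe set, under the filter, read 645, 71.5 and 421 in PGCLC and at most 44.6 on any other array. Both genes therefore had the same high arrays on every probe set.

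Zic5 had 3 probe sets, and in spermatids they disagreed. In RS, 1425666_at was at 896, 951 and 1046, above all its PGC and PGCLC arrays, and 1456140_at at 654, 498 and 498. The third, 1456219_at, was at 97.8, 82.8 and 91.1 in RS, which overlapped with its PGC arrays at 48.7, 86.4 and 68.3. In PGCLC, 1456219_at was at 1397, 206 and 1010, wholly above its own RS arrays, whereas 1425666_at, at 233 and 201 on replicates 1 and 3 and near the floor on replicate 2, lay wholly below its own. By mean log2 values, RS over PGC was 21.3-fold for 1425666_at, with 2 PGC arrays set to the floor (the ratio of mean signals was 20.9), 8.57-fold for 1456140_at and 1.37-fold for 1456219_at. All 3 were lower in SLC than in RS with no overlap of arrays, at log2 differences SLC minus RS of -0.89, -0.89 and -0.70. For 1456140_at the SLC minus RS value was -1.39 after quantile normalization. The standing of RS against PGC thus depended on the Zic5 probe set read.

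**Figure D2:**
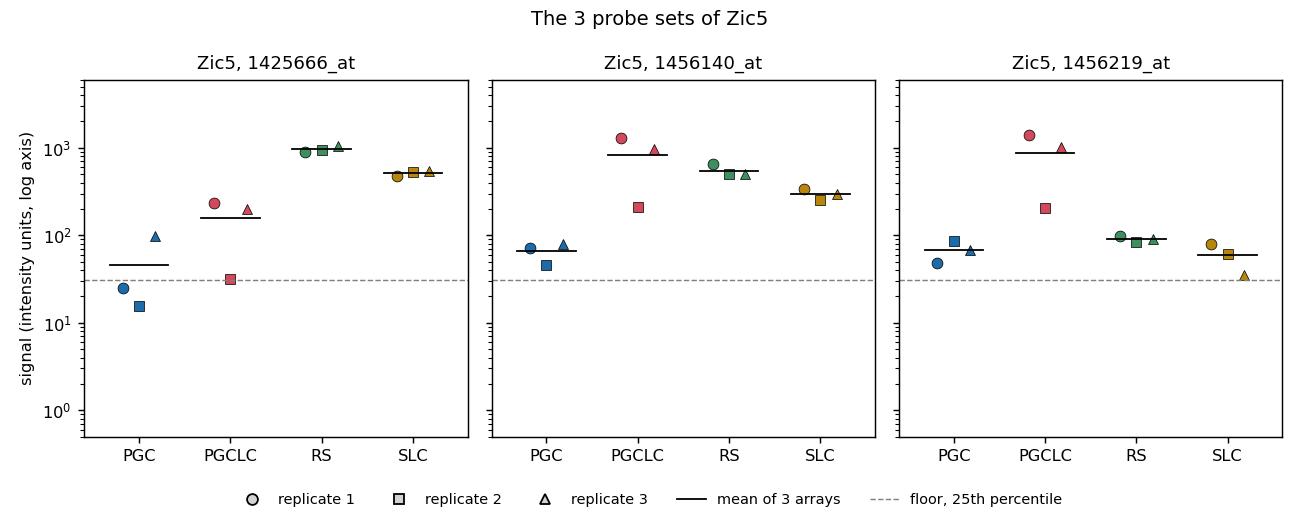
Signal of the 3 Zic5 probe sets on each array, in intensity units on a log axis, with a line at the mean of 3 arrays and the floor dashed. In RS the probe set 1425666_at reads between 896 and 1046 units and 1456219_at between 82.8 and 97.8, while in PGCLC replicates 1 and 3 the latter reads 1397 and 1010.

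Of the 3 Nes probe sets, 1449022_at was at 45.1, 44.8 and 51.2 in RS and 325, 257 and 116 in SLC, again without overlap, while the dimmest (1453997_a_at) was under the floor on all RS arrays and at 46.3, 20.8 and 39.8 in SLC. The second Sox3 probe set (1450485_at) was at 102, 83.2 and 97.0 in RS and 99.4, 99.6 and 84.0 in SLC, with overlap, so the lower SLC signal of the brighter one was not seen there. With medians centred, after quantile normalization and with the mean of both probe sets, Sox3 SLC minus RS was -0.89, -1.16 and -0.31, beside -0.63 as read from the brighter one, and Nes was 0.42 after quantile normalization and 1.60 with the mean of its probe sets, beside 1.01.

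Within PGCLC, Zic1 was 13.5-fold higher on replicate 1 than on replicate 2, Nefl 11.7-fold, Zic5 6.04-fold and Zic2 3.48-fold. Between replicates 1 and 3 the ratios were smaller, at 1.33, 1.58, 1.34 and 0.905 in the same order. For Otx2, Sox3 and Nes, replicate 1 over replicate 2 was 0.492, 1.35 and 0.742. Zic1, Zic5 and Nefl had the array order replicate 1, replicate 3, replicate 2 with at least 4-fold between the ends, as did 3.16% of the genes tested. Otx2 and Nes did not follow it, and Zic2 was highest on replicate 3.

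Many other neural genes had the same order of PGCLC arrays as Zic1, most of them with a smaller step. From high to low the order replicate 1, replicate 3, replicate 2 was seen in 14 of 18 neural progenitor genes, 13 of 20 neuronal genes and 10 of 19 epiblast genes, against 32.1% of all genes tested. With at least 4-fold between the ends it was seen in 3, 8 and 3 of them, against 3.16% of all genes. Of the 18 and 20 neural genes, however, 5 and 4 passed the filter only with the help of the PGCLC arrays. They include Sox1, Fabp7 and Pou3f3, the 3 neural progenitor genes with the 4-fold step, and Dcx and Stmn3 of the neuronal ones. The counts of array order are therefore a description and were not tested. The median log2 difference from the PGC mean on replicates 1, 2 and 3 was 1.63, 0.22, 1.32 for the neural progenitor genes and 2.12, 0.54, 1.68 for the neuronal genes, and between 0 and 0.001 for all genes. Most markers of the fetal gonad and of germ cells ran the opposite way. The reverse order, from replicate 2 over replicate 3 to replicate 1, was seen in 30.1% of all genes tested. Of 18 fetal gonad somatic markers, 17 had the reverse order, with summed signals of 3536, 15372 and 7957 units on replicates 1, 2 and 3 beside 5561 to 6925 in PGC, and 6 of them (Nr5a1, Star, Hsd3b1, Inhba, Dhh and Tcf21) lay at the floor on replicate 1. Of 13 germ cell markers, 10 had the reverse order and 2 (Tfap2c and Alpl) that of Zic1. Tfap2c was at 2695, 1058 and 1823 units on replicates 1, 2 and 3 beside a PGC mean of 884. Alpl was at 1512, 734 and 1322 beside 674. In PGCLC minus PGC, 3 germ cell markers (Dnd1, Mael and Sycp3) were called lower and 0 higher, beside 1.60% and 10.3% over all genes. Blood markers were mixed. Of 10 measured, 4 had the order of Zic1 and 4 the reverse, 4 (Hbb-bh1, Csf1r, Adgre1 and Cd68) were called higher and 1 (Pecam1) lower, and their median log2 differences from PGC were 0.75, 0.41, 0.81 on replicates 1, 2 and 3. Their summed signal, 6363, 17913 and 12384 units beside 13977 to 14970 in PGC, held embryonic globin Hbb-y at 1136, 14997 and 7843, while Cd68, a macrophage gene, was at 944, 109.7 and 635 in PGCLC and 60.4, 88.7 and 96.2 in PGC. Of 18 testis somatic markers, of which 10 stand in the fetal gonad list too, 8 rose and 0 fell (0 lower at an unadjusted limma p under 0.05), beside 10.3% higher and 1.60% lower over all genes. On replicate 1, however, 8 of the 18 lay below the PGC mean, among them the Sertoli gene Wt1 and the steroid enzyme gene Hsd3b1, and the list medians were 0.30, 1.25, 0.88. The sums of 30224, 24658 and 27788 units beside 9325 to 10508 in PGC included Vim, a filament gene of mesenchymal cells, at 9291, 5432 and 7468 beside 2330, 2144 and 2115, and the protease gene Ctsl, at 10544, 2693 and 7992 beside 1558, 1458 and 1431. The part of these markers' cells in the Zic and Nefl signals was not tested.

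**Figure D3:**
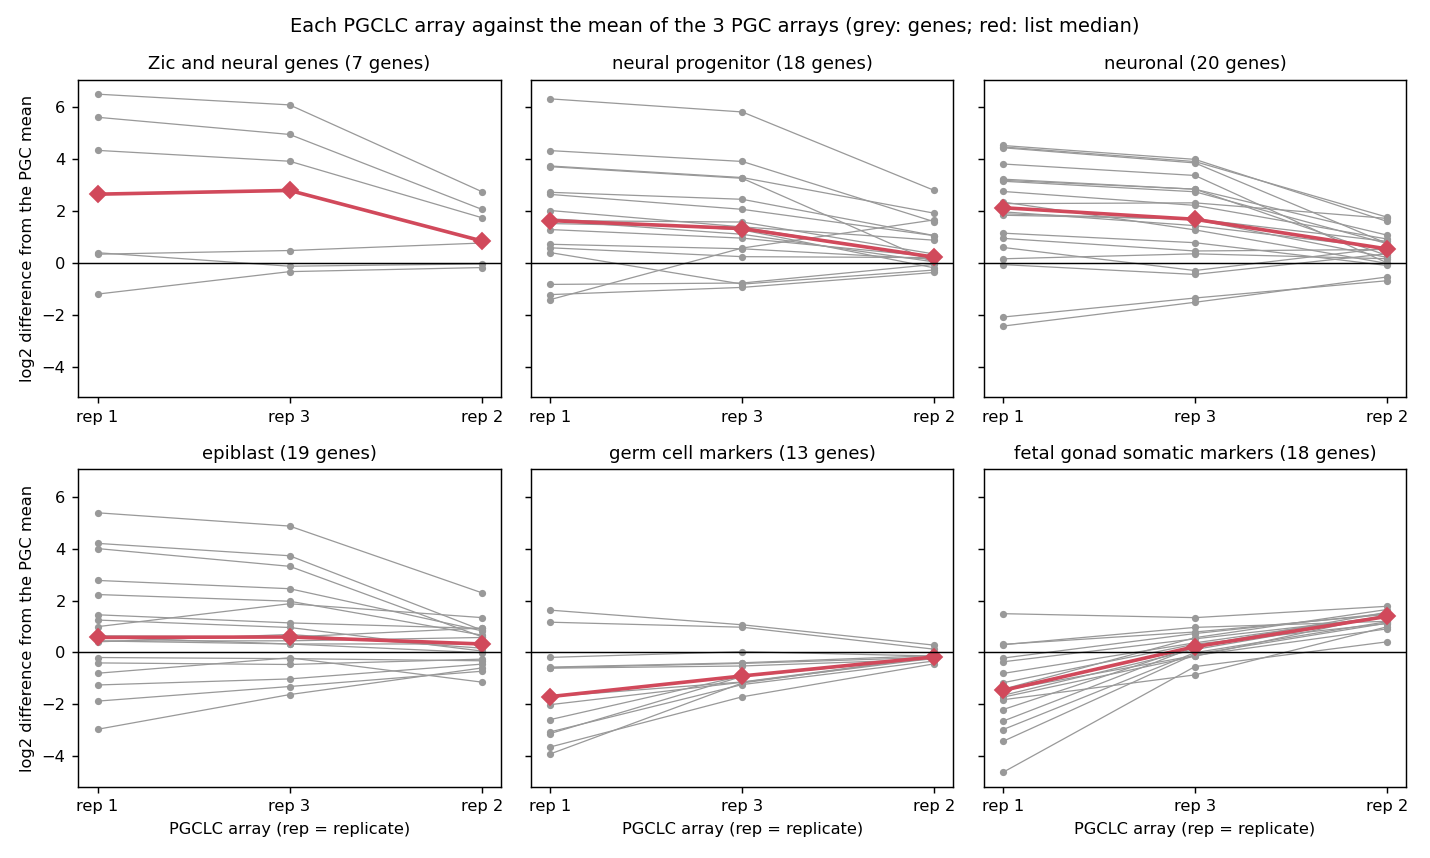
Log2 difference of each PGCLC array from the mean of the 3 PGC arrays, with a grey line per gene and the list median in red, for the 7 genes and 5 lists. The Zic and neural lists are highest on replicates 1 and 3 and lower on replicate 2, and the fetal gonad somatic markers run from a median of -1.47 on replicate 1 to 1.39 on replicate 2.

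To place the 7 genes among their kind, lists of other neural progenitor, neuronal, epiblast, and hedgehog and Gli genes were tested in PGCLC against PGC, the comparison that asks how cells made in culture differ from fetal germ cells. More neural genes rose than fell. Of 32 neural progenitor genes, 18 were measured, and 7 rose and 0 fell, and of 24 neuronal genes, 20 were measured, and 12 rose and 2 fell. Over all genes tested, 11.9% were called in either direction, 10.3% higher and 1.60% lower (adjusted p under 0.05 and at least 2-fold). The list medians were 0.98 and 1.38 on the log2 scale, against 0.0062 over all genes. Of these genes, 5 neural progenitor and 4 neuronal ones passed the filter only with the help of the PGCLC arrays, so that a high PGCLC signal was part of what admitted them. Among those above the filter on at least 3 of the 9 other arrays, 3 of 13 neural progenitor and 9 of 16 neuronal genes rose, and 0 and 2 fell, beside 9.47% higher and 1.65% lower of the 13774 genes that met the same condition.

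The neural progenitor genes that rose and met this condition were Sox11, Msi1 and Irx3. Sox11, a factor of immature neurons, rose 7.88-fold to 3767 ± 2031 (log2 2.98, SE 0.36, limma adjusted p = 0.000608). Msi1, an RNA-binding protein of neural stem cells, and the homeobox gene Irx3 rose 4.21-fold and 3.77-fold. Admitted by their PGCLC signal, and so given as values alone, were Fabp7, a fatty acid carrier of radial glia, at 42.2, 9.65 and 77.2 in PGC and 3719, 322 and 2620 in PGCLC, and Pou3f3, a POU factor of the developing brain, at 35.0, 25.8 and 54.4 and 779, 116 and 583. Pax3, a factor of the dorsal neural tube, was at 16.3, 2.12 and 83.3 and 173, 78.4 and 112.

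The SoxB1 relatives of Sox3 differed among themselves. Sox1, the most neural of them and likewise admitted by its PGCLC signal, was at the floor on all PGC arrays and at 401, 6.58 and 294 in PGCLC, where replicate 2 was at the floor too. Sox2, which germ cells also use, was bright in both groups, at 5898 ± 199.7 in PGC and 8247 ± 1619 in PGCLC, and stayed under 2-fold (log2 0.46, limma adjusted p = 0.0319).

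Neurofilament genes split. Nefm, the medium chain, rose 10.3-fold, from 37.1 ± 6.35 to 514 ± 372 (log2 3.37, SE 0.63, limma adjusted p = 0.0045), and was at 846, 111 and 584 on the PGCLC arrays, an order it shared with its neighbour Nefl. Nefh, the heavy chain, fell 2.84-fold, from 706, 851 and 523 in PGC to 125, 465 and 237 in PGCLC (log2 -1.50, SE 0.39, limma adjusted p = 0.0166), a call lost without PGC replicate 1 or 2 and without PGCLC replicate 3. Ina, another neuronal filament gene, was at 326 ± 29.2 and 525 ± 209 and was not called (limma adjusted p = 0.184).

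Among the other neuronal genes, Dpysl3, a regulator of axon growth, rose 10.4-fold to 837 ± 586, and Stmn2, a microtubule-binding protein of growth cones, 8.07-fold to 1590 ± 1278. Dcx, a microtubule protein of migrating neurons that also passed the filter only with its PGCLC arrays, was under the floor on all PGC arrays and at 431, 25.03 and 318 in PGCLC. Ncam1, a neural cell adhesion molecule, rose on all PGCLC arrays, and least on replicate 2. It went from 123, 134 and 160.3 in PGC to 672, 453 and 686 (log2 2.10, SE 0.18, limma adjusted p = 0.000121). Uchl1, a ubiquitin hydrolase of neurons and of germ cells, fell from 2848 ± 131 to 1180 ± 551. Ncam1 in this comparison and Uchl1 were picked after their values were seen.

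Of 26 epiblast genes, 19 were measured, and 7 rose and 2 fell, beside 10.3% and 1.60% of all genes, with a median log2 difference of 0.49. Krt18, an epithelial keratin, rose 18.2-fold to 9827 ± 7268, the Nodal co-receptor gene Tdgf1 7.64-fold, Dnmt3l, a cofactor of DNA methylation, at least 6.26-fold, and the TEAD factor gene Tead2 4.07-fold. Dnmt3l was at 750, 71.1 and 466 in PGCLC and 46.2, 12.2 and 71.5 in PGC, so PGCLC replicate 2 lay within the PGC arrays. Without PGCLC replicate 3 the Dnmt3l and Tead2 calls were lost, as was that of Dnmt3l without PGC replicate 2. The 2 that fell were Lefty1 and Lefty2, secreted inhibitors of Nodal, which like Otx2 were lowest on PGCLC replicate 1, at 428 and 623 units beside 3353 ± 326 and 2289 ± 114 in PGC. The Lefty1 call was lost in 12 of 23 alternatives, among them without any 1 PGC or SLC array and without PGCLC replicate 1 or 3, and that of Lefty2 in the fit of the 2 groups alone. Gli proteins, the effectors of hedgehog signals, carry zinc fingers related to those of Zic proteins. Of 16 hedgehog and Gli genes, 13 were measured, and Gli2 (4.49-fold) and the co-receptor gene Boc (2.04-fold) rose and 0 fell, that is 15.4% higher beside 10.3% of all genes. Boc arrays of the 2 groups overlapped, with PGCLC replicate 2 at 144.3 and PGC replicate 3 at 144.9. The Boc call was lost in 10 of 23 alternatives, among them without any 1 PGC array and without PGCLC replicate 1 or 3. Gas1 (log2 1.08, limma adjusted p = 0.0514) and Smo (log2 0.94, limma adjusted p = 0.132) did not pass. At an unadjusted limma p under 0.05, 1 neural progenitor gene and 0 hedgehog genes were lower.

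The calls depend on pooling the spread of all 4 groups. When limma was fitted to only the 6 arrays of these 2 groups, it called 0 neural progenitor genes (9 higher and 1 lower at an unadjusted p under 0.05), 1 neuronal gene (Ncam1), 1 epiblast gene (Cdh2) and 2 hedgehog genes (Gli2 and Gas1), among 168 genes higher and 7 lower. Over all genes the lower calls, 227 as reported, ranged from 58 without PGCLC replicate 1 to 757 without PGCLC replicate 2. Without PGCLC replicate 2 the counts were 11 higher and 1 lower for neural progenitor, 13 and 2 for neuronal and 8 and 3 for epiblast genes, with 3 hedgehog genes higher, and the log2 differences of Zic1, Zic2, Zic5 and Nefl were 6.30, 2.72, 4.13 and 5.28. Neuronal rises numbered 7 without PGCLC replicate 1, epiblast rises 4 without PGCLC replicate 3, and neuronal falls 1 without PGC replicate 1, PGC replicate 2 or PGCLC replicate 3. Epiblast falls numbered 1 without any 1 of the PGC or SLC arrays, PGCLC replicate 1 or PGCLC replicate 3, and hedgehog rises 1 without any 1 of the PGC arrays or PGCLC replicate 1 or 3. The share of all calls that were higher was 86.5% as deposited, 52.6% with array medians centred and 73.5% after quantile normalization, and centring moved the median of all genes to -0.23.

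The other comparison of the design sets SLC, the product of culture, against RS taken from the animal. Few neural genes were called here. Of 18 neural progenitor genes 2 rose and 0 fell, and of 20 neuronal genes 2 rose and 3 fell, beside 26.8% of all genes tested called in either direction, 23.5% higher and 3.32% lower. The list medians were -0.17 and -0.28, against -0.15 over all genes. Of the 7 genes, Nes was the one with SLC arrays wholly above RS, and Zic5 and Sox3 had SLC arrays wholly below. Of all genes tested, 34.1% had SLC arrays wholly above RS and 40.4% wholly below.

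Ncam1 rose 13.9-fold in SLC, from 68.8, 78.0 and 72.9 to 992, 999 and 1065 (log2 3.80, SE 0.18, limma adjusted p = 8.99e-09). Nefm rose 4.06-fold, from 98.4, 35.1 and 43.0 to 183, 270.3 and 201 (log2 2.02, SE 0.63, limma adjusted p = 0.0158; lost without RS replicate 2 or 3 and without SLC replicate 2), while Nefl was at 105 units on RS replicate 1 and lower on the other arrays of both groups. Sox11 rose 4.10-fold to 321 ± 3.87, and Irx3 rose at least 3.82-fold to 159 ± 14.9. Syt1, a synaptic vesicle protein gene, fell 2.36-fold to 43.2 ± 22.2 units, near the floor. Sox1, at 80.1 ± 18.9 in RS and 31.6 ± 24.7 in SLC, did not pass (limma adjusted p = 0.243).

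The epiblast list had 5 rises and 1 fall of 19 in SLC and the hedgehog list 6 rises and 0 falls of 13, that is 26.3% and 46.2% higher beside 23.5% of all genes, so the epiblast share was near that of all genes. Sox4, a SoxC factor, rose 31.4-fold, from 206 ± 22.7 to 6446 ± 162 (log2 4.97, SE 0.095, limma adjusted p = 1.14e-11), Dnmt3a from 118 ± 34.8 to 921 ± 108 and Lefty1 5.68-fold (4.87-fold by mean signals). Gas1 rose 21.9-fold (19.1-fold by mean signals), Smo, the hedgehog signal transducer, 7.38-fold (6.37-fold) and Ptch1, the hedgehog receptor, 5.06-fold to 519 ± 66.0. At an unadjusted limma p under 0.05, 1 neural progenitor gene and 1 hedgehog gene were lower.

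Markers of testis somatic cells moved with these rises. Of 18 measured, 16 rose and 0 fell in SLC, beside 23.5% higher and 3.32% lower over all genes. In the fit of the 6 arrays of these 2 groups, 16 were called higher and 1 (Cyp17a1) lower, beside 3334 and 479 of 14197 genes. In the fit of all arrays, 0 were lower at an unadjusted limma p under 0.05. The summed signal of the 18 was 107098 to 108536 units in SLC against 3782 to 4263 in RS. The steroid synthesis genes Cyp11a1, Star and Hsd3b1 rose, from means of 8.97, 44.6 and 45.4 units in RS to 4115, 2637 and 577 in SLC. Cyp17a1, a steroid enzyme of Leydig cells, was not called in the fit of all arrays and was at the floor on 2 of the 3 SLC arrays. The part of somatic cells in the Nes, Ncam1 and hedgehog signals was not tested. Neuronal rises numbered 1 without RS replicate 2, RS replicate 3 or SLC replicate 2, and neural progenitor falls 1 without PGC replicate 3 or RS replicate 1 and 2 without PGCLC replicate 2. Epiblast falls numbered 2 without RS replicate 2 or SLC replicate 1. The share of all calls that were higher was 87.6% as deposited, 53.4% with medians centred and 54.3% after quantile normalization, and the median of all genes moved from -0.15 to -0.41 and -0.34.

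**Figure D4:**
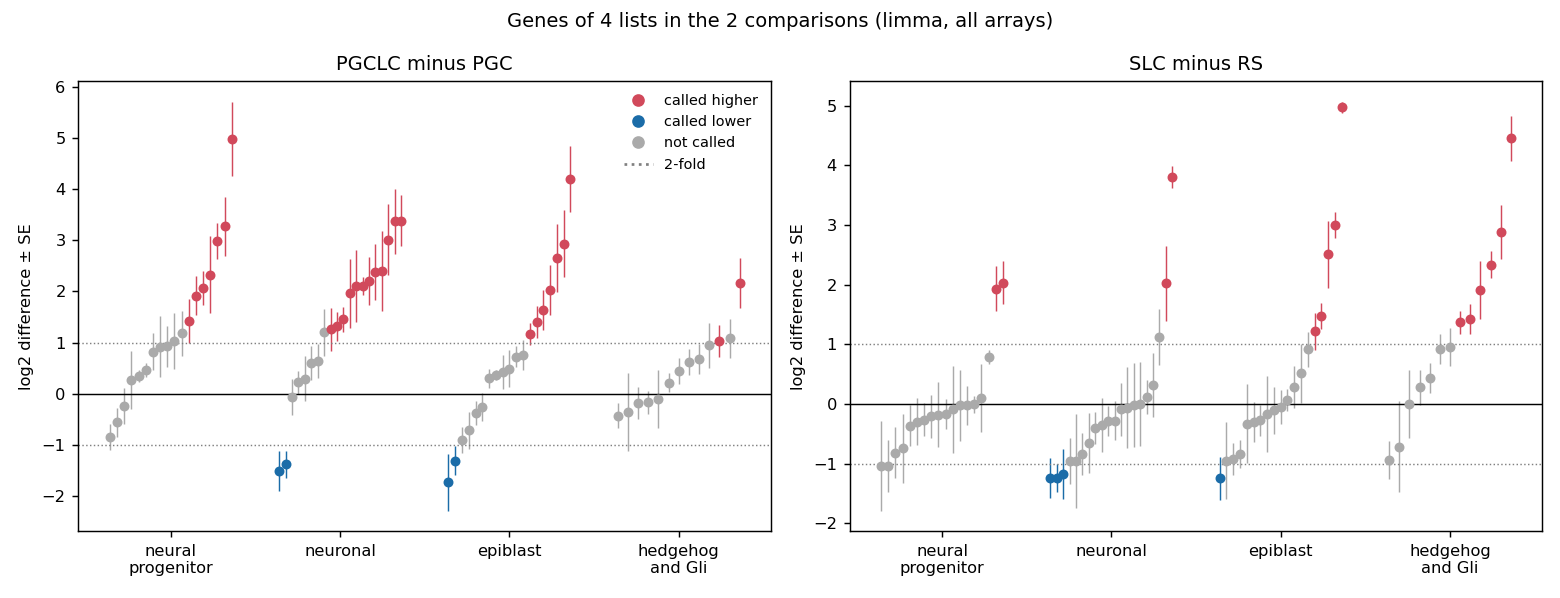
Log2 difference with its SE for each measured gene of 4 lists, in PGCLC minus PGC and in SLC minus RS, from the limma fit of all 12 arrays, with called genes coloured and 2-fold marked by dotted lines. Neural progenitor and neuronal genes are called higher 7 and 12 times in PGCLC minus PGC and 2 times each in SLC minus RS. They are called lower 0 and 2 times in PGCLC minus PGC and 0 and 3 times in SLC minus RS. Of the 7 and 12, 4 and 3 passed the filter only with the help of the PGCLC arrays. The counts of the 2 comparisons were not tested against each other.

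The genes whose profile over the 12 arrays was most like that of each of the 7, by Pearson's r of log2 values and as a description only, since the arrays fall into 4 groups, were as follows. Zic1 was closest to Sema3e, a guidance cue gene, at 0.997, with 699, 100.2 and 461 units on the PGCLC arrays, then to Igfbp2 (0.991) and the tight junction gene Cldn4 (0.990). Zic2 was closest to Stmn2 (0.989), Crxos (0.988) and Nrk (0.987), and Nefl to the connexin gene Gjb2 (0.979), the keratin gene Krt8 (0.975) and Pou3f3 (0.971). Zic5 was closest to Kbtbd11 (0.985), Car2 (0.978) and Gabbr1 (0.971), which were also high in RS. Otx2 was closest to Dna2, the DNA methyltransferase gene Dnmt1 and the germ cell gene Dppa4 (each 0.998), which was also lowest on PGCLC replicate 1, at 3306, 7560 and 4830. Sox3 was closest to Ncoa3 (0.975), Smu1 and Rassf7 (each 0.969), and Nes to Rflnb (0.970), Smo (0.954) and Pde5a (0.953). Among the 7 genes, r was highest between Zic1 and Nefl (0.959), Zic1 and Zic2 (0.898), Zic2 and Nefl (0.878) and Otx2 and Sox3 (0.845), and only 0.211 between the neighbours Zic2 and Zic5.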

How the data were processed

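Linear intensities of the probe sets of 12 Affymetrix 3' expression arrays were used as the authors deposited them. MAS5 is the only tool named, per the submitters' processing notes, without a version. The 2% trimmed mean of each array was 499.8 to 499.9, so arrays had been scaled to a common level. Detection calls and background settings are not given in the sources used here. Precision is limited by the 3 arrays in each group.

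Of 45101 probe sets, 64 controls, 932 with several gene symbols and 9160 with none were left out, and symbols of 34741 were checked by Entrez identifier. Values under the 25th percentile (30.7) were set to it before log2. Probe sets above the table median (92.0) on at least 3 arrays were kept (24949), and each gene was read from the one with the highest mean (14197 genes). One limma fit (limma 3.58.1, R 4.3.3) of 4 group means with an intensity trend gave both comparisons, with Benjamini and Hochberg adjustment over all genes. Calls needed an adjusted p under 0.05 and 2-fold. "At least" stands before a fold whose lower group held floored arrays, if the ratio of unfloored means was as large or larger. The fit was tested on simulated data.

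The genes and lists were chosen with earlier results of these data known. Named from each list were the 4 genes with the largest absolute difference PGCLC minus PGC and the 3 for SLC minus RS, all called neural progenitor genes, the remaining SoxB1 and neurofilament genes and, for each of the 7, the 3 most correlated genes. Lefty2, Cdh2 and the genes said to be so were named after their values were seen. The 23 alternatives listed at the outset changed scaling, floor, filter, probe set rule, fit, weights, block, or left out each array. A further one, chosen after seeing the data, counted only genes above the filter without the PGCLC arrays.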

Additional observations from a re-analysis of the deposited data

Results flagged for a closer look

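Zic5 moved in opposite directions at the 2 stages on 2 of its 3 probe sets, and this is what marked them for a second look. On 1456140_at the log2 difference was 3.33 for PGCLC minus PGC and -0.89 for SLC minus RS, with no overlap of arrays in either comparison. On 1456219_at the values were 3.33 and -0.70, again with no overlap. On 1425666_at, PGC and PGCLC arrays overlapped, and SLC minus RS was -0.89. The difference between the 2 stages was not tested, since these genes were chosen on the same signals.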

How the results depend on the processing

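Among the genes named by rule, no called value changed direction in the alternatives. Of the 7 genes Sox3, at 0.072 in PGCLC minus PGC, turned negative in 5 of the alternatives. Of 184 list counts in the settings that keep all arrays of the groups compared, 152 stayed within 1.5 times the reported count, as did 164 of 192 with an array left out. For PGCLC minus PGC, rises of neural progenitor genes numbered 3 with a filter on 6 arrays and 3 with a filter on the 9 arrays other than PGCLC, the last chosen after seeing the data, 0 in the fit of the 2 groups alone, 11 with array weights (whose estimation stopped before its tolerance) and 5 to 11 with an array left out. Falls numbered 1 with medians centred and 0 to 1 with an array left out. Neuronal rises numbered 1 in the fit of 2 groups and 7 to 13 with an array left out, and neuronal falls 0 and 1 to 2. Epiblast rises numbered 1 in the fit of 2 groups and 4 to 8 with an array left out, and epiblast falls 1 after quantile normalization, with no filter and with no trend, 0 in the fit of 2 groups and 1 to 3 with an array left out. Hedgehog rises numbered 1 with medians centred, after quantile normalization and with no filter, and 1 to 3 with an array left out. For SLC minus RS, rises of neural progenitor genes numbered 1 with the floor at the table median, and their falls 1 there, with no filter and with array weights, 2 in the fit of 2 groups, 3 with medians centred and after quantile normalization, and 0 to 2 with an array left out. Neuronal rises numbered 1 with the floor at the median and 1 to 3 with an array left out, and neuronal falls 1 with that floor and 5 with medians centred or after quantile normalization. Epiblast falls numbered 0 with that floor and with the filter on 6 arrays, 3 with medians centred or after quantile normalization, and 1 to 2 with an array left out. Hedgehog falls numbered 1 with medians centred and with no filter. Apart from the centred, quantile and 2-group settings, whose scaling or number of samples differs by construction, the cause was not tested. Replicate numbers did not clearly pair the arrays. Deviations of same-numbered arrays correlated at -0.005, -0.001 and 0.027 between PGC and PGCLC, beside -0.018 to 0.011 for arrays of different number. Between RS and SLC the values were 0.133, 0.006 and 0.073, beside -0.106 to 0.052, so pairing there was not settled. The replicate block gave 1456 higher and 224 lower calls, 10 of the rises neuronal, in PGCLC minus PGC, and in SLC minus RS it gave 3338 and 467. For the 7 genes, 135 of 148 differences moved by less than the spread between replicates. Many of these could not move. The log2 difference is the same by construction with no trend, in the fit of 2 groups and with the replicate block. It is also unchanged by the filter where the same probe set is read. With the floor at the table median, the Zic1 difference PGCLC minus PGC fell but counted as unmoved, as its PGCLC arrays spread widely. The count is therefore not read as a measure of stability. Signals near the floor of 30.7 limit what can be said of Zic1, Nefl and Otx2 in the groups where they are dim.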

Other observations

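Some genes filed here as neuronal or hedgehog genes were far brighter in spermatids than in PGC or PGCLC. Dpysl3 signal was 8604, 9137 and 8853 in RS and 5868, 5504 and 5584 in SLC, beside 62.6, 68.0 and 55.9 in PGC and 1372, 210.2 and 928 in PGCLC. Sufu, an inhibitor of Gli proteins, was at 5493, 5052 and 5590 in RS and 2870, 2753 and 2800 in SLC and at 69.8, 66.9 and 30.8 in PGC. Both were chosen after their values were seen, and no test was made between the germ cell stages.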
